A study of Mus musculus with 2 samples.

Results

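The iron handling genes Hmox1, Fth1, Ftl1, Slc40a1, Tfrc, Trf, Cp, Slc11a1, Slc11a2 and Heph were followed in mouse preglomerular arterioles that had been collected by magnet after the kidneys were perfused with iron oxide. They were matched by name, as the text before the first colon of the gene column in the authors' dChip table, and the set was proposed with earlier results of these data known. All 10 were found, each with 1 probe set present in both deposited tables, among 22314 named genes. The series compared 2 arrays, each made from pooled arteriole RNA. The wild type array held RNA of 3 mice, 2 males and 1 female, that were Ren1d+/+ and carried RBP-J flox/flox with the R26R ECFP reporter. The RBP-J cKO array held RNA of 4 males that were Ren1d+/cre, again with RBP-J flox/flox and R26R ECFP. Both pools came from a mixed 129Sv and C57Bl6 background and were 3 months of age. Cre stands at 1 Ren1d allele, so that recombination is limited by design to cells that make or have made renin. Iron oxide was given to both pools and no vessels without it were analysed here, so the comparison is one of genotype in iron-exposed tissue. The sex of the animals differed between the pools and cannot be told apart from the genotype.

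Iron travels in plasma bound to transferrin, the product of Trf, and enters cells when transferrin binds transferrin receptor 1, the product of Tfrc, and is taken into endosomes. DMT1, encoded by Slc11a2, moves the released iron into the cytosol, and its relative Slc11a1, or NRAMP1, does this work in the phagosomes of macrophages. Iron is stored in ferritin, a shell of heavy chains (Fth1) and light chains (Ftl1), and is set free from haem by haem oxygenase 1 (Hmox1). It leaves cells through ferroportin (Slc40a1) and is oxidised for loading onto transferrin by ceruloplasmin (Cp) or by the membrane-bound hephaestin (Heph). Iron regulatory proteins bind stem-loops called iron-responsive elements in some of these mRNAs. In the 5′ UTR of Fth1, Ftl1 and Slc40a1 mRNA they hold back translation, and in the 3′ UTR of Tfrc mRNA they protect the message from decay. One form of Slc11a2 mRNA also carries a 3′ element. In the kidney, proximal tubule cells take up filtered transferrin and other iron carriers, and macrophages take up particles and dying cells.

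Levels are given on the log2 scale of the authors' RMA values, with the linear intensity of their dChip processing of the same arrays beside them, and a difference is the cKO value minus the wild type value. With 1 array per group no difference could be tested, no standard deviation between samples exists, and pooling hides the spread between animals. The number of arrays limits the precision. A floor was set at 7.56, the median RMA value of all named probe sets, and a gene passed it if either array did, which held for 11587 genes and for 9 of the 10 iron genes, Heph being the exception. The median RMA value over all probe sets was 7.25 for wild type and 7.21 for cKO. Rbpj, the targeted gene, read 9.0 and 9.02 on its brighter probe set and 5.93 and 5.81 on its dimmer one. The sources used here do not place these probes inside or outside the floxed exons, and the gene is therefore no check of the genotype labels. Of the markers of the labelled tissue, 7 of 8 smooth muscle genes and 4 of 5 renin cell genes were above the floor. So were all 10 endothelial genes listed. All 8 podocyte genes and all 8 proximal tubule genes were above it as well, and the RNA therefore came from more than the arteriole wall.

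Most iron genes were somewhat higher in the cKO pool, and none was 2-fold apart. Of the 10, 9 were higher and 1, Heph, was lower, with 10 higher by dChip and 8 after loess centring, while 53.9% of all genes above the floor were higher by any amount. The median difference of the 10 genes was 0.35, against 0.02 over all genes above the floor, whose differences had a standard deviation of 0.31. At 1.2-fold, a threshold added after the values were seen, 6 of the 10 were higher, beside 18.6% of all genes. At 1.5-fold 1 of the 10, Tfrc, was higher and 0 were lower, beside 4.1% and 1.6% of all genes. At 2-fold the count was 0 in each direction, beside 0.854% of all genes higher and 0.198% lower. In the authors' deposited table, 0.918% of probe sets carry the mark of their comparison filter, and 0 of the 10 iron genes do.

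**Figure D1:**
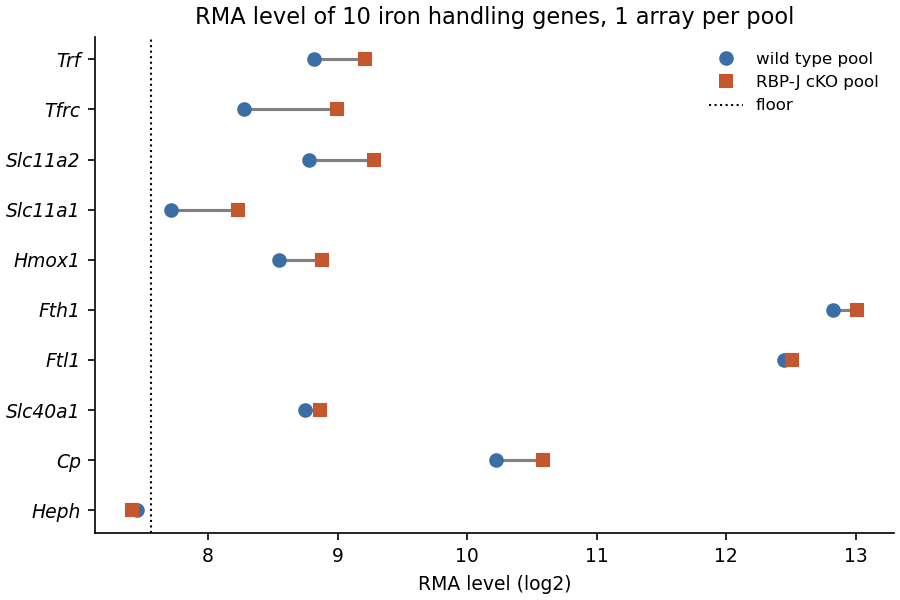
RMA level (log2) of each iron gene in the wild type pool (circles) and the RBP-J cKO pool (squares), 1 array each, with no error bars because there are no replicates. The dotted line is the floor at 7.56. Tfrc shows the widest gap, from 8.27 to 9.0, and Heph lies below the floor on both arrays.

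Tfrc held the largest difference of the 10 genes. It encodes the receptor that takes up transferrin, and its RMA level was 8.27 in the wild type pool and 9.0 in the cKO pool, with dChip intensities of 472 and 748. It was 1.65-fold higher in the cKO pool, a log2 difference of 0.72, and 2.36% of the genes above the floor had a larger one. The authors' deposited table gives Tfrc a fold of 1.58 with bounds of 1.52 and 1.66, at a confidence level that the sources used here do not state. The level of Slc11a2, the endosomal iron transporter gene, was 8.78 in wild type and 9.28 in cKO, and its dChip intensity was 661 and 1009. Its difference of 0.50 was exceeded by 6.17% of genes, and its fold in the authors' deposited table was 1.53, with bounds of 1.47 and 1.58. The receptor and the transporter that acts after it in the endosome thus stood 1st and 3rd among the 10 genes by RMA difference, and 1st and 2nd by dChip.

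Trf, which encodes the plasma iron carrier itself, read 8.82 in wild type and 9.21 in cKO, with dChip intensities of 474 and 694. The difference was 0.39 by RMA and 0.55 by dChip, the second widest disagreement of the 2 processings among the 10 genes. In the authors' deposited table Trf has a fold of 1.46, with bounds of 1.36 and 1.58. Slc11a1, the phagosomal transporter gene of macrophages, had a level of 7.72 in wild type, just above the floor, and 8.23 in cKO, with intensities of 302 and 391. Its difference was 0.52 by RMA and 0.37 by dChip, and 5.61% of genes had a larger RMA difference. Macrophage marker genes were higher in the cKO pool too: of all 18 measured 17 were higher, with a median difference of 1.02. Among all genes above the floor 53.9% were higher by any amount. Of the 14 macrophage markers above the floor 5 passed it through the cKO array alone. The 9 markers that were above it in wild type had a median of 0.92. Lyz2 differed by 2.13 and Adgre1, with its wild type level below the floor, by 1.49. The summed linear level of all 18 macrophage markers was 3836 in wild type and 7880 in cKO, with Fcgr1, Aif1, Itgam and Vsig4 below the floor. Slc11a1 differed by less than either median, and the part of macrophage RNA in its difference was not tested. In such tissue RNA more cells of a type and more RNA per cell cannot be told apart.

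Iron storage genes were close to equal. Fth1, the ferritin heavy chain gene, had levels of 12.82 and 13.01, with dChip intensities of 7360 and 8575. Its difference was 0.19, and 25.9% of genes had a larger one. The light chain gene Ftl1 read 12.44 and 12.51, with intensities of 5962 and 6220, a difference of 0.06 that 42.5% of genes exceeded. After a loess trend on level was taken away the difference of Fth1 was 0.03 and that of Ftl1 was -0.08, so the direction of Ftl1 turned with this scaling. In the authors' deposited table the folds were 1.16, with bounds of 1.14 and 1.19, for Fth1 and 1.04, with bounds of 1.03 and 1.06, for Ftl1. Ferritin genes have close copies in the mouse genome, and the array can mix their signals. Ftl2, named as a second light chain, was represented by 2 probe sets. The first (10508069) read 11.96 and 12.06, a difference of 0.10. The second (10447591) read 8.45 and 9.23 by RMA, a difference of 0.78, but 5265 and 5517 in dChip intensity, a log2 difference of 0.07. The Ftl2 probe sets were looked at after the ferritin values were seen.

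The stretches before the start sites of both ferritin genes and of Tfrc are shown because they belong to the members with the smallest and the largest differences of the uptake and storage genes. They are the 130 bases before the start in RefSeq's GRCm38.p6 annotation, 5′ to 3′ on the gene's strand, and capitals mark CCAAT or GGGCGG on either strand. Fth1 is at chr19:9982516-9982645 on the plus strand, Ftl1 at chr7:45459887-45460016 on the minus strand and Tfrc at chr16:32608766-32608895 on the plus strand.
Fth1: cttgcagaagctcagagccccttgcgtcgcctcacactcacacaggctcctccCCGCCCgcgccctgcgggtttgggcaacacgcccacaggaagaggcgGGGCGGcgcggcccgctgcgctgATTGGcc
Ftl1: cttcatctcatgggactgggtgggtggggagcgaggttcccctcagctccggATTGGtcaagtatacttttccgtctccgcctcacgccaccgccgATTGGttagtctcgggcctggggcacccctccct
Tfrc: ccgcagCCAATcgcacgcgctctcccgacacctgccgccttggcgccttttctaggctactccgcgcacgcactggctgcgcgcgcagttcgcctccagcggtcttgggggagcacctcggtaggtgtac

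Of the 10 iron genes, 5 (Fth1, Ftl1, Tfrc, Cp and Slc11a1) have a window in the RefSeq promoter table. Within 250 bases before the start CCAAT was found in Fth1, Ftl1 and Tfrc, and in 33.8% of all 32851 windows. GGGCGG, the letters of the GC box, was found in Fth1 and Ftl1 and in 32.7% of all windows. TGACNNNGC, the core of the antioxidant response element bound by Nrf2, was in 10.2% of all windows and in none of the 5. ACGTG, the core of the hypoxia response element, was in 16.6% of all windows and in none of the 5, and TATAAA (12.4%) and TATAAG (6.65%) were likewise not in these 5 windows. Each motif was searched on both strands, these motifs share no letters where found here, and a match or its lack describes these windows alone.

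Hmox1, which encodes the inducible enzyme that opens the haem ring, was modestly higher in the cKO pool. It read 8.55 in wild type and 8.88 in cKO, with dChip intensities of 464 and 620. Its difference was 0.33 by RMA and 0.42 by dChip, and 13.2% of genes had a larger RMA difference. The authors' deposited table gives Hmox1 a fold of 1.34, with bounds of 1.25 and 1.43. Macrophages and proximal tubule cells are both known to make this enzyme, and markers of both were higher in the cKO pool, as given below. Their part in the Hmox1 difference was not tested.

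Among the genes of iron release, the exporter was nearly equal and a ferroxidase was higher. Slc40a1, the ferroportin gene, had levels of 8.75 and 8.86, with dChip intensities of 654 and 675. Its difference was 0.11 by RMA and 0.04 by dChip, and in the authors' deposited table its bounds of 0.98 and 1.09 around a fold of 1.03 include 1. Cp, the soluble ferroxidase gene, had levels of 10.22 and 10.59, with intensities of 1171 and 1626. Its difference was 0.37 by RMA and 0.47 by dChip, and 11.4% of genes had a larger RMA difference. Heph, the gene of the membrane-bound ferroxidase related to ceruloplasmin, read 7.45 and 7.41, below the floor on both arrays. Its difference was -0.04 by RMA and 0.15 by dChip, with intensities of 290 and 323, so its direction depended on the processing.

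Ordered by the place of their iron-responsive element, which is background knowledge and not read from these files, 5 of the genes fell into separate ranges. The 3 genes with a 5′ element, Fth1, Ftl1 and Slc40a1, differed by 0.06 to 0.19. The 2 genes with a 3′ element, Tfrc and Slc11a2, differed by 0.50 to 0.72. By dChip the ranges were 0.04 to 0.22 and 0.61 to 0.66, and did not overlap either. The genes not placed in these groups were not set apart from them. By RMA Slc11a1, at 0.52, lay within the range of the 3′ group. Trf, Cp and Hmox1, at 0.39, 0.37 and 0.33, lay between the ranges, and Heph, at -0.04, below both. The grouping was made after the values were seen, and 5 genes on 2 arrays allow no test of it. The array reads mRNA, so that translation, the step at which a 5′ element acts, was not measured.

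**Figure D2:**
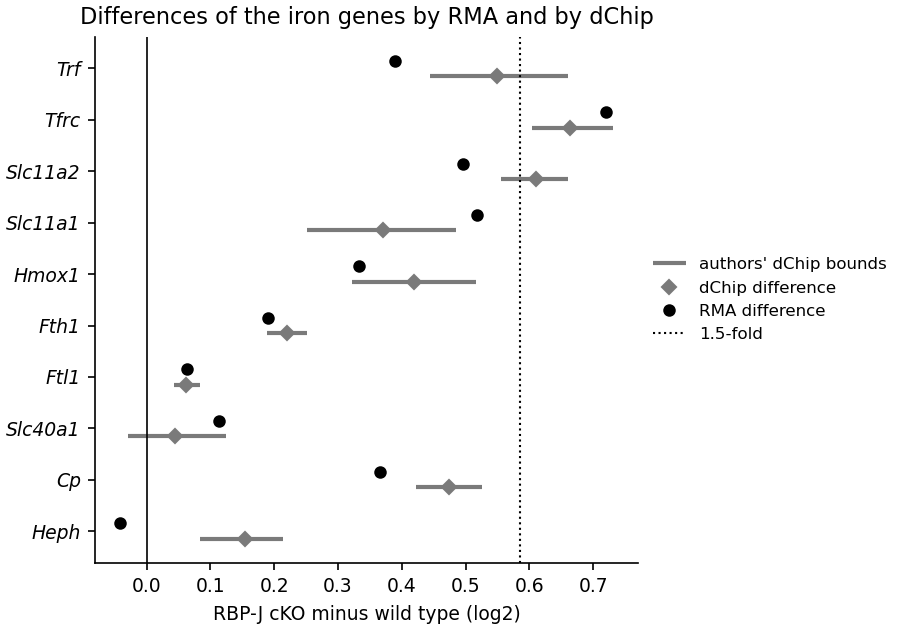
Difference between RBP-J cKO and wild type (log2) of each iron gene by RMA (circles) and by dChip (diamonds), with the authors' dChip bounds as bars. The dotted line marks 1.5-fold. Tfrc passes it by both processings and Slc11a2 by dChip, and the dots of Heph lie on opposite sides of 0.

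The sizes of the differences depended on the processing for some of the iron genes. By dChip all 10 were higher in the cKO pool and 2, Tfrc and Slc11a2, were at least 1.5-fold higher. The dChip difference was the larger one for 6 of the 10 genes. For 5 of them the 2 values lay within 0.098 of each other, the standard deviation of that disagreement over all genes above the floor. The other 5 were Heph, Trf, Slc11a1, Slc11a2 and Cp, with dChip minus RMA at 0.20, 0.16, -0.15, 0.11 and 0.11. Among all genes above the floor, the quartiles of the RMA differences were -0.12 and 0.20, and 6 of the 10 iron genes were above the upper one.

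**Figure D3:**
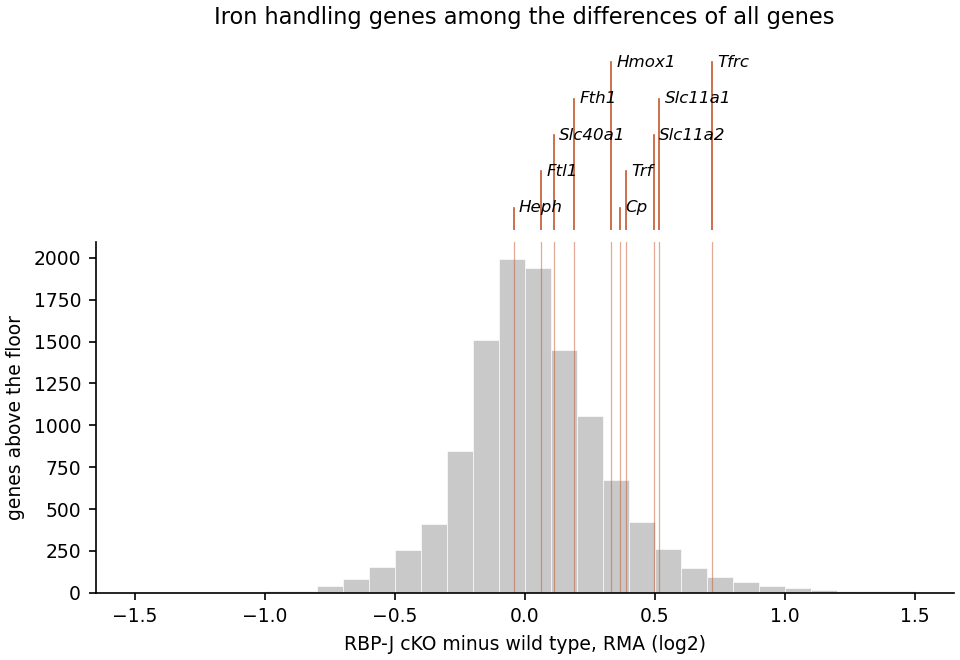
Histogram of the RMA differences (log2, RBP-J cKO minus wild type) of the 11587 genes above the floor in bins of width 0.1, with 23 genes beyond the axis range of -1.5 to 1.5 left out, and the 10 iron genes as labelled lines. The iron genes run from -0.04 for Heph to 0.72 for Tfrc, on the right side of the histogram or near its centre.

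Genes that take part in the same pathways were listed in 7 groups, and 63 of them were above the floor, 3 through the cKO array alone. Of these 52 were higher in the cKO pool and 11 lower, with a median of 0.23. At 1.2-fold 29 were higher, at 1.5-fold 5 were higher and 0 lower, and 1 was at least 2-fold higher. Of all genes above the floor 53.9% were higher by any amount, 18.6% at 1.2-fold, 4.1% at 1.5-fold and 0.854% at 2-fold. At 1.5-fold 1.6% were lower. These shares apply beside the counts of each of the 7 lists.

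The list of iron uptake and cell entry had a median of 0.23, with 9 of 11 genes higher. This median was 0.11 with the mean over probe sets, 0.12 with no floor and 0.14 with loess centring, and 0.11 over the 9 genes above the floor in wild type. Lcn2 encodes a protein that carries iron bound to siderophores, and it was 8.21-fold higher, from 6.15 to 9.19, with its wild type level below the floor. The log2 difference of Lcn2 was 3.04 by RMA and 2.39 by dChip. The part of cell content in the Lcn2 difference was not tested. The metal transporter genes Slc39a8 and Slc39a14 differed by 0.52 and 0.32 by RMA, and by 0.71 and 0.385 by dChip. Cubn, the gene of the proximal tubule receptor cubilin that retrieves filtered transferrin, differed by 0.32. The wild type level of Slc39a8, 7.53, lay just below the floor. Of the genes of this list, Tfr2, the gene of the second transferrin receptor, was below the floor on both arrays at 6.0 and 5.93.

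Haem genes were followed in separate lists for scavenging and for synthesis. In the list of haem and globin scavenging 6 of 9 genes were higher, beside 53.9% of all genes above the floor. The median of this list was 0.27, and 0.16 with no floor. Slc46a1, which encodes a folate transporter that also carries haem, read 8.26 and 8.89, a difference of 0.63. The haem exporter gene Abcg2 differed by 0.42, the biliverdin reductase gene Blvrb by 0.39 and the constitutive haem oxygenase gene Hmox2 by 0.33, the same size as Hmox1. By dChip Abcg2, Blvrb and Hmox2 differed by 0.27, 0.32 and 0.32. The haemoglobin receptor gene Cd163 of macrophages was below the floor at 5.43 and 5.61. Of the 8 genes of haem synthesis above the floor 6 were higher, with a median of 0.24. Over the 7 that were above the floor in wild type 5 were higher, with a median of 0.16. Cpox, which encodes an enzyme late in the pathway, was higher by 0.65, and Alas1, the gene of its first and rate-limiting enzyme outside red cells, by 0.55. Uros differed by 0.31, with its wild type level of 7.33 below the floor. The erythroid gene Alas2 was below the floor at 7.15 and 7.24. Globin genes, which the perfused vessels can hold from red cells, moved the same way: Hbb-b1 differed by 0.58 and Hba-a2 by 0.23, the summed level of 5 red cell genes was 8774 and 10407, and 2 of the 5 were below the floor. The part of red cells in the haem genes' differences was not tested.

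Apart from Aco1, genes around the ferritins and the systemic regulators were close to equal. The list of storage, chaperones and iron regulatory proteins had a median of 0.08, with 5 of 6 genes higher, and the median turned to -0.0084 when differences were centred on a loess trend over level. Aco1, encoding iron regulatory protein 1, differed by 0.36 and Ireb2, encoding iron regulatory protein 2, by 0.18. Ncoa4, the gene of the receptor that delivers ferritin to lysosomes, and the iron chaperone gene Pcbp2 differed by 0.08 each. The hepcidin list had a median of 0.06 over 4 genes, with Bmp6, Neo1 and Hfe at 0.06 each and Hamp2 at -0.05. Hamp, the hepcidin gene, was below the floor at 4.63 and 4.45, and Erfe was not analysed here.

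Of 12 mitochondrial iron genes 11 were higher, and their median was 0.20. Nfs1, which encodes the cysteine desulphurase of iron-sulphur cluster assembly, differed by 0.55 and Glrx5 by 0.40. By dChip these differences were 0.33 and 0.47. Slc25a37, the gene of mitoferrin 1, was the exception at -0.33. Nrf2 is a transcription factor of the oxidative stress response whose known targets include Hmox1 and both ferritin genes. The list of Nrf2 and its antioxidant targets had a median of 0.38, the highest of the 7. Of its 13 genes above the floor 12 were higher and 10 at least 1.2-fold higher, beside 53.9% and 18.6% of all genes. Nqo1 read 7.86 and 8.49, a difference of 0.62. Gclm, encoding a subunit of the enzyme that limits glutathione synthesis, differed by 0.58, Srxn1 by 0.51 and the metallothionein gene Mt1 by 0.49. By dChip Gclm, Srxn1 and Mt1 differed by 0.59, 0.27 and 0.53. The gene of Nrf2 itself, Nfe2l2, read 10.43 and 10.48. The activity of Nrf2 was not measured, and its part and that of cell content in these differences were not tested.

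**Figure D4:**
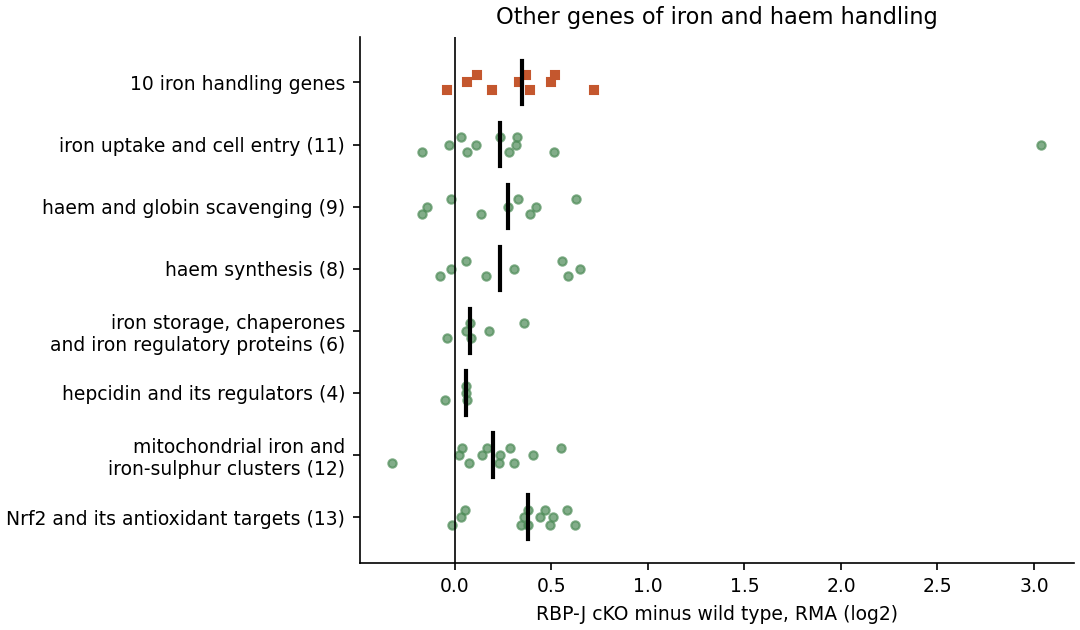
RMA differences (log2, RBP-J cKO minus wild type) of listed genes above the floor (circles, number in brackets) and of the 10 iron genes (squares), with the median of each row as a black bar. The medians run from 0.06 for the hepcidin list to 0.38 for the Nrf2 list, and the far right point is Lcn2 at 3.04.

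Markers of several cell types differed between the pools, in both directions, while 53.9% of all genes above the floor were higher by any amount. Besides the macrophage genes given above, all 8 proximal tubule genes were higher, with a median of 0.26 and a summed level of 30530 in wild type and 37159 in cKO. Ggt1 and Slc22a6 differed by 0.54 and 0.52. Of the thick limb and distal tubule list 6 of 7 were higher, the median being 0.34 and the sums 18428 and 21454, led by Pvalb at 0.94 and Cldn16 at 0.74. Of the collecting duct list 6 of 7 were likewise higher, the median being 0.79 and the sums 2717 and 4126, led by the proton pump genes Atp6v0d2 at 1.21 and Atp6v1g3 at 1.11. These and the anion exchanger genes Slc26a4, at 0.79, and Slc4a1, at 0.57, mark intercalated cells. The water channel genes of principal cells, Aqp2 and Aqp3, differed by -0.18 and 0.18. No marker of the 3 tubule lists was below the floor.

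Vascular and glomerular markers were lower. All 10 endothelial genes were lower, their median being -0.59 and their sums 29689 and 20923, and Egfl7 and Kdr differed by -0.76 and -0.72. All 8 podocyte genes were lower, their median being -0.44 and their sums 23105 and 18196, and Nphs1 and Synpo differed by -0.63 and -0.57. So were the 4 renin cell genes above the floor, with a median of -0.44 and sums of 3621 and 2698, Akr1b7 being below the floor. Ren1 read 10.77 and 10.19 and Gjc1 differed by -0.54. Only the cKO mice carried Cre at 1 Ren1d allele, which cannot be told apart from the loss of RBP-J in the Ren1 reading. The median of the smooth muscle list was -0.07, with 2 of 7 genes higher, sums of 9017 and 8565 and Lmod1 below the floor, and ran from -0.29 for Myl9 to 0.34 for Tagln. Of 5 genes of iron-recycling macrophages, Vcam1 was above the floor and differed by 0.22, a gene that activated endothelium also expresses. Spic, Timd4, Marco and Cd5l were below it.

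The median of the 10 iron genes, 0.35, thus was close to those of the proximal and distal tubule lists, below those of the macrophage and collecting duct lists, and on the other side of 0 from those of endothelium, podocytes, renin cells and smooth muscle. The part of cell content in the iron genes' differences was not tested.

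**Figure D5:**
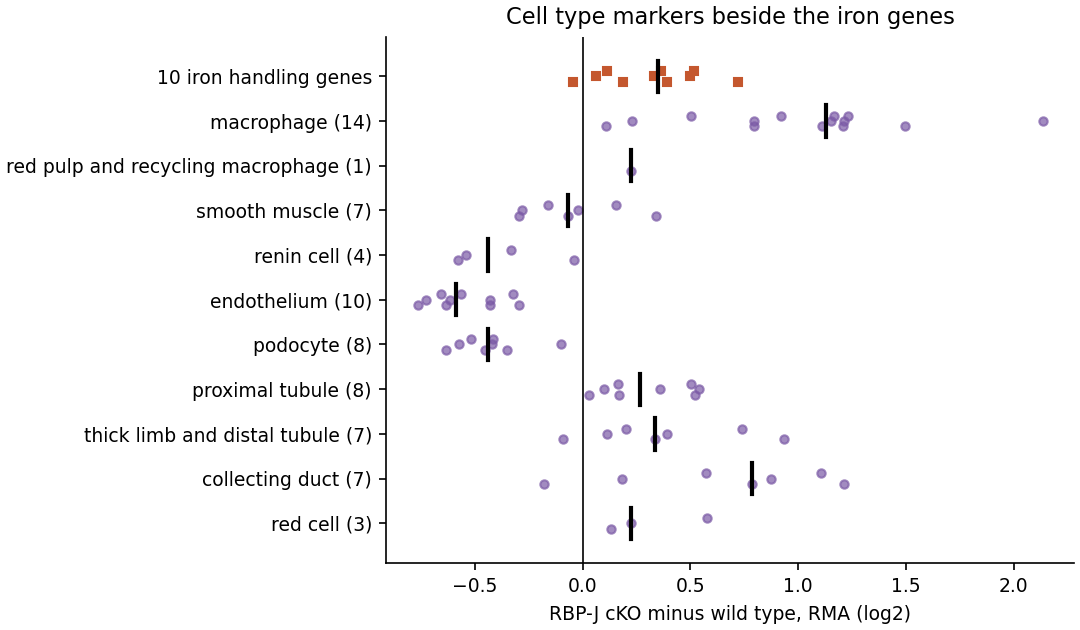
RMA differences (log2, RBP-J cKO minus wild type) of cell type markers above the floor on either array (circles, number in brackets; 5 of the macrophage genes through the cKO array alone) and of the 10 iron genes (squares), with the median of each row as a black bar. The medians of the macrophage and tubule rows lie to the right of 0 and those of the endothelial, podocyte and renin cell rows to the left. The iron genes' median is at 0.35.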

How the data were processed

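RNA was measured on 1 Affymetrix whole-transcript array per pool. Per the submitters' processing notes, which list RMA, R 2.15.0 and limma 3.12.1 with no roles, the deposited log2 values were taken as RMA values. The deposited intensity values, the signed fold score and its bounds were made with dChip, per the file headers. Versions of dChip, genome build and annotation were not given in the sources used here. RMA evens out whole distributions, and a change common to most transcripts is lost in it.

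Names were the text before the first colon of the dChip table's gene column. Both tables hold 34760 probe sets, and 24612 of these had a name. Of the 1287 genes with several, the probe set with the highest mean of both arrays was used. The accession beside the name belongs to the RefSeq gene of that name for 9 of the 10 iron genes, and that of Cp is not in the RefSeq table. Of 160 listed genes 159 were found, 5 of them under another symbol than the one listed: Tfr2 and Slc48a1 through a RefSeq synonym, and Meltf, Hjv and Adgre1 through the older symbols Mfi2, Hfe2 and Emr1. Named are all 10 members, Rbpj, Ren1 and, among genes above the floor, the 4 with the largest absolute difference per pathway list and the 2 per cell type list. Tfr2, Cd163, Alas2, Hamp, Nfe2l2, Ftl2, Aqp2, Aqp3, Slc26a4, Slc4a1 and markers below the floor were added with their values already known. A few listed genes are counted in their lists but not reported by name here. Members and lists were chosen with earlier results of these data known. Sequences are RefSeq's (GRCm38.p6), from the most upstream start of those under 300 bases apart and otherwise the most downstream. The counting steps were tested on simulated data. Python 3.11.15, pandas 2.3.3, NumPy 2.4.6, statsmodels 0.14.6 (loess fraction 0.3) and matplotlib 3.10.9 were used.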

Additional observations from a re-analysis of the deposited data

How the results depend on the processing

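Alternatives were the dChip intensities, centring on the median (a shift of -0.01) or on a loess trend, averaging all probe sets of a gene (the same for the 10 iron genes, which have 1 each), other floors and thresholds, and lists without their top gene. The 1.2-fold threshold and the count of genes higher by any amount were added after the data were seen. Of the iron gene differences and the medians, only the difference of Tfrc was past 1.5-fold by RMA, and its sign did not change. Among smaller values the sign turned for Heph with dChip. It also turned for Ftl1 and for the median of the storage list with loess centring. The limit used was a move of 0.098 or a count within 1.5 times. Centring on the median and, for the 10 iron genes, averaging could not move a difference past this limit. With these counted, 96 of 109 alternative values stayed within the limit and 13 moved further. With dChip these were Trf at 0.55, Cp at 0.47, Slc11a1 at 0.37, Slc11a2 at 0.61, Heph at 0.15, and 2 iron genes at least 1.5-fold higher in place of 1. With loess centring they were Fth1 at 0.0311 and Ftl1 at -0.0815. The count of 1 became 0 at 2-fold and 6 at 1.2-fold. The median of the uptake list was 0.11 with the mean over probe sets and 0.12 with no floor, and that of haem and globin scavenging was 0.16 with no floor; the causes were not tested. No paired analysis was possible because each group has 1 array. No standard deviation between arrays could be had, and the levels of Heph, and the wild type levels of Lcn2, Slc39a8, Uros, Adgre1, Cd14, Ctss, Tyrobp and Fcer1g, below the floor, limit the size of their differences.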
